A study of Carassius auratus with 4 samples.

Results

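Ependymin is a secreted glycoprotein of the teleost brain and cerebrospinal fluid. It is made by fibroblast-like cells of the meninges, binds calcium and collagen, and is known in goldfish for its part in memory formation and nerve regeneration. It occurs in goldfish as the closely related forms EPD-I and EPD-II, and the pre-protein carries a signal peptide that is removed on secretion. The array design holds 33 cDNA clones of 8100 whose name contains the word ependymin or the abbreviation EPD, and all 33 were followed here. The rule used the names alone and no measured value.

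The 33 clones fall under 5 names. EPD alone was the name of 15 clones, EPD-I of 6, EPD-II of 6, Ependymin precursor (EPD) of 4 and pre-ependymin of 2. In 4 of them the design adds a remark on the insert or its ends, which for 42d23 doubts its identity (42d23 and 43i21 among EPD, 43e16 among EPD-I and 42h01 among EPD-II). Each clone was printed in 2 spots, and 27 of the 33 came from clone plates 42 and 43 and lie in rows 17 to 19 of their print blocks. Clones of the same or closely related transcripts can bind the same labelled RNA, so the 33 clones are repeated readings of a small gene family rather than 33 genes, and EPD, EPD-I and EPD-II cannot be told apart with certainty by hybridisation. The clone sequences were not used here.

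Dispersed cells from pituitaries of male and female goldfish (Carassius auratus) were given 10 nM goldfish secretoneurin for 12 h in static incubation. Secretoneurin is released from secretogranin II, a granin stored in secretory granules, by cleavage. The control cells are described only as having no incubation, so whether they spent the same time in culture is not given, and the peptide and the incubation itself cannot be told apart if they did not. RNA of both groups was hybridised together on 4 arrays, 1 pair of samples to an array. The dye of secretoneurin RNA was Cy5 on replicates 1 and 3, and it was Cy3 on replicates 2 and 4, and the headers put the quantification of the arrays on days that divide them in the same way, so day and dye orientation cannot be told apart. The labels do not say whether the 4 pairs came from separate cultures, so every p-value concerns only the spread between these 4 pairs. In limma the variance of each clone was also drawn toward that of all clones.

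The arrays as a whole set the limits of what follows. Pituitary RNA was plainly present, with 3 of 4 clones named for pituitary hormones above background with both dyes on all 4 arrays. These are bulk samples, so fewer cells of a type and less RNA per cell cannot be told apart. Over all clones the log2 ratios of replicates 2 and 4, which have the same dye orientation, had a Pearson correlation of -0.61 across clones, and those of replicates 1 and 3 one of 0.25. The labels and the headers state the same dyes for replicates 2 and 4, so the direction of both arrays was kept, and values with the sign of either turned are given in the closing section. Of 8089 clones with a value on at least 3 arrays, 0 (0%) passed an adjusted p of 0.05 for secretoneurin against control in limma, and 223 (2.76%) had an unadjusted p under 0.05.

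Ependymin clones were seen in Cy5 about as often as other clones, and in Cy3 they were mostly at the floor. A clone was counted as above background in a channel when its signal exceeded the local background plus 2 background SDs. In the Cy5 channel 18, 18, 29 and 8 of the 33 clones were above background on replicates 1 to 4, and in the Cy3 channel 3, 2, 1 and 0 were. Those Cy5 counts are 54.5%, 54.5%, 87.9% and 24.2% of the ependymin clones, against 52.7%, 45.1%, 75.4% and 39.9% of all clones, so in Cy5 their share was above that of all clones on replicates 1 to 3 and below it on replicate 4. In Cy3 the shares were 9.09%, 6.06%, 3.03% and 0%, against 18.6%, 16.8%, 17.3% and 15.2% of all clones, lower on every array. None of the 33 was above background with both dyes on all 4 arrays, which 10.4% of all clones were. The counts followed the dye: 29 of the 33 clones were above background in Cy3 on no array, whichever RNA that dye carried.

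Spots printed with buffer and no DNA give the floor of each channel. In Cy5 24.6%, 11.8%, 25.9% and 4.62% of buffer spots passed the background limit on replicates 1 to 4. Of ependymin spots 56.9%, 51.6%, 83.1% and 24.6% passed it. Passing the limit in Cy5 on 1 array therefore does not by itself show signal. In Cy3 3.08%, 0.935%, 1.83% and 0.615% of buffer spots passed. The median Cy3 intensity of ependymin spots was 550, 627, 380 and 511 on replicates 1 to 4, against 554, 669, 387 and 493 in buffer spots. In this channel ependymin spots were as dim as spots without DNA. In Cy5 the medians were 217, 216, 157 and 206, against 167, 178, 107 and 156 in buffer spots, so the ependymin spots stood slightly over the floor on every array. The medians over all gene spots in Cy5 were 221, 218, 156 and 206, close to those of the ependymin spots. In Cy3 the medians over all gene spots were 591, 653, 400 and 524. These were above the ependymin medians on every array, and above the buffer medians on replicates 1, 3 and 4. The typical gene spot was thus also near the floor in Cy3.

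**Figure D1:**
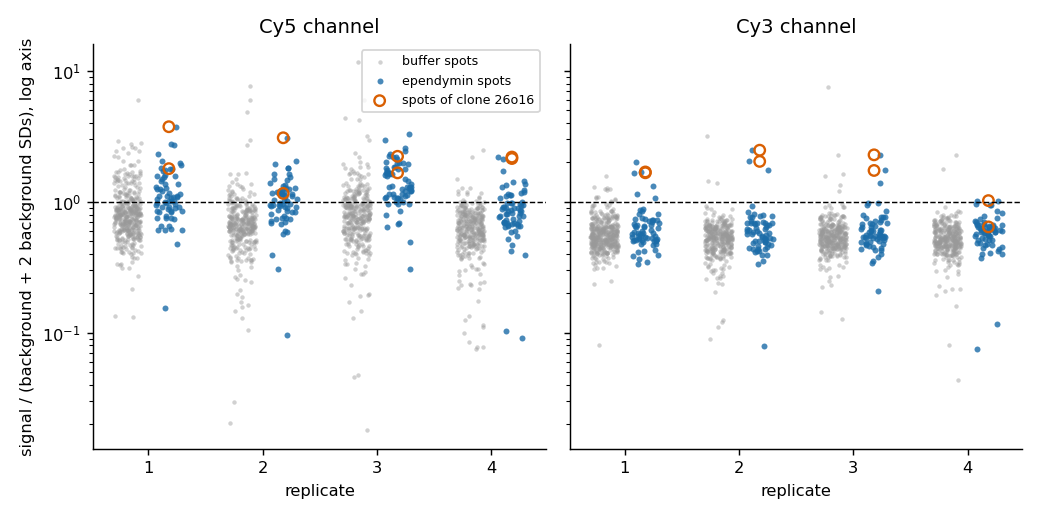
Signal of each spot divided by its background plus 2 background SDs, on a log axis, for ependymin spots (blue), buffer spots (grey) and the spots of clone 26o16 (orange rings), by replicate and dye. The dashed line at 1 is the limit for counting as above background: in Cy3 most ependymin spots lie below it among the buffer spots, and 26o16 stands over it in both dyes on replicates 1 to 3.

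By group, 18 of the 33 clones were above background on at least 1 array in each group, 13 in secretoneurin RNA alone and 2 (42i24 and 42m23) in neither. The shares of all clones for these group counts are not given, so the counts are no result about ependymin. On replicate 3, where 29 ependymin clones and 75.4% of all clones were above background in Cy5, that dye carried secretoneurin RNA. A ratio of such a clone sets a reading over the floor against one at the floor, so its values on single arrays below are readings and not measured folds.

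Clone 26o16, named pre-ependymin, was the ependymin clone most often above background. It was above background in control RNA on 4 arrays and in secretoneurin RNA on 3, and it was the only ependymin clone above background in Cy3 on more than 1 array. On replicate 1 its spots read 1801 and 859 in secretoneurin RNA and 3981 and 1734 in control RNA, before any correction for the dyes. On replicate 2 they read 3868 and 2609 in secretoneurin RNA and 1469 and 601 in control RNA, on replicate 3 they read 827 and 1303 against 1674 and 1939, and on replicate 4 they read 1730 and 1126 against 2503 and 1135. The RNA in Cy3 read higher on replicates 1 to 3, and on replicate 4 the RNA in Cy5 did.

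After background correction and loess, the log2 ratio of secretoneurin over control for 26o16 was 0.053, 1.16, 0.046 and -1.60 on replicates 1 to 4. Secretoneurin and control were level on the pair of arrays with secretoneurin in Cy5, and far apart in opposite directions on the pair with it in Cy3. The value of replicate 4 sets control RNA over background against a secretoneurin reading that was not above it, so it too is a reading and not a measured fold. Both spots went the same way on each of the latter, with 0.93 and 1.39 on replicate 2 and -2.03 and -1.18 on replicate 4. The fitted log2 ratio was -0.087 ± 0.48 (SE, n = 4 arrays), with a 95% confidence interval from -1.41 to 1.23 and an adjusted p of 0.998 in limma, so no change with secretoneurin was shown and a change of more than 2-fold in either direction lies within the interval. The call turned on 1 array at a time: without replicate 4 the ratio was 0.60 (adjusted p = 0.0077, limma, 437 clones called in all) and without replicate 2 it was -0.78 (adjusted p = 0.0022, 346 clones called), in fits where 1 dye orientation has a lone array that is assumed to vary like the others.

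The opposition of replicates 2 and 4 was shared with many clones of other genes. Only 1.62% of clones had a ratio farther from 0 than 26o16 on replicate 2, and 1.52% on replicate 4. Counting clones above 0.5 on replicate 2 and below -0.5 on replicate 4, limits set after the values of 26o16 had been seen, gave 430 of 7953 (5.41%), and 1 clone showed the inverse. Their medians were 0.075, 1.01, 0.18 and -1.16 on replicates 1 to 4. The share depended on the clone plate: it was 16.8% on plates 21 to 30, 8.70% on plate 26, from which 26o16 came, and 0 of 763 clones on plates 42 and 43, which hold most ependymin clones. Among ependymin clones 26o16 was the 1 of 33 (3.03%).

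**Figure D2:**
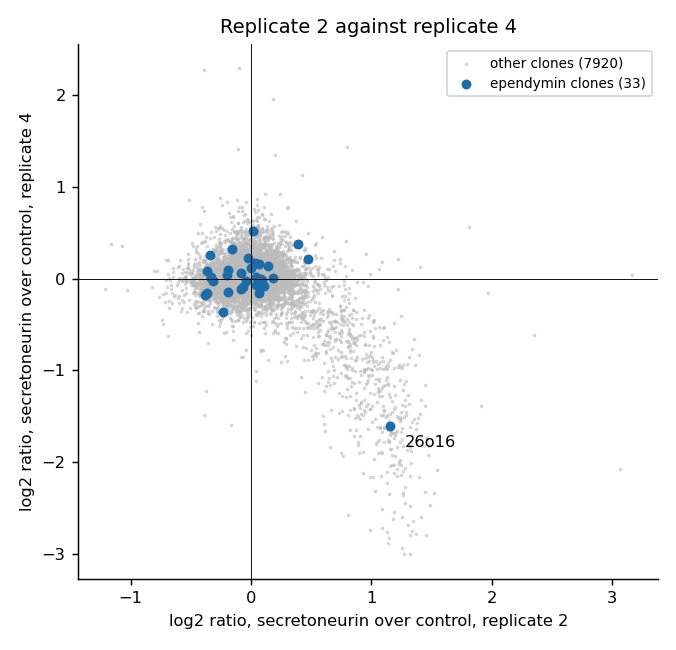
Log2 ratio of secretoneurin over control on replicate 2 (x axis) and replicate 4 (y axis) for the clones measured on all 4 arrays, with the 33 ependymin clones in blue. Clone 26o16, at 1.16 and -1.60, lies in the tail of clones that run to the lower right, and the other ependymin clones lie in the central cloud.

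The named clones nearest to 26o16 were sought after its values had been seen, among 504 named clones above background in both channels on at least 3 arrays. By Euclidean distance of the log2 ratios over the 4 arrays they were endozepine (distance 0.14), an acyl-CoA-binding protein, Tetratricopeptide repeat protein 15 (0.15), the RNA-binding Lupus La protein (0.15), G-protein coupled receptor family C group 5 member C (0.18) and Ubiquitin fusion degradation protein 1 homolog (0.19). Endozepine, for example, read -0.014, 1.21, 0.085 and -1.50 on replicates 1 to 4.

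The second pre-ependymin clone, 24k21, did not go with 26o16. Its log2 ratios were 0.21, 0.18, 0.12 and 0.011 on replicates 1 to 4, all above 0. It was above background in secretoneurin RNA on 1 array and in control RNA on none, so no fold is given. The estimate was 0.13 ± 0.062 (adjusted p = 0.998, limma, n = 4), and it was 0.013 with loess within print blocks and 0.037 in the authors' deposited table. All 7 of its kept spot values were above 0, although 2 of them, on replicate 4, were 0.018 and 0.0049.

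**Figure D3:**
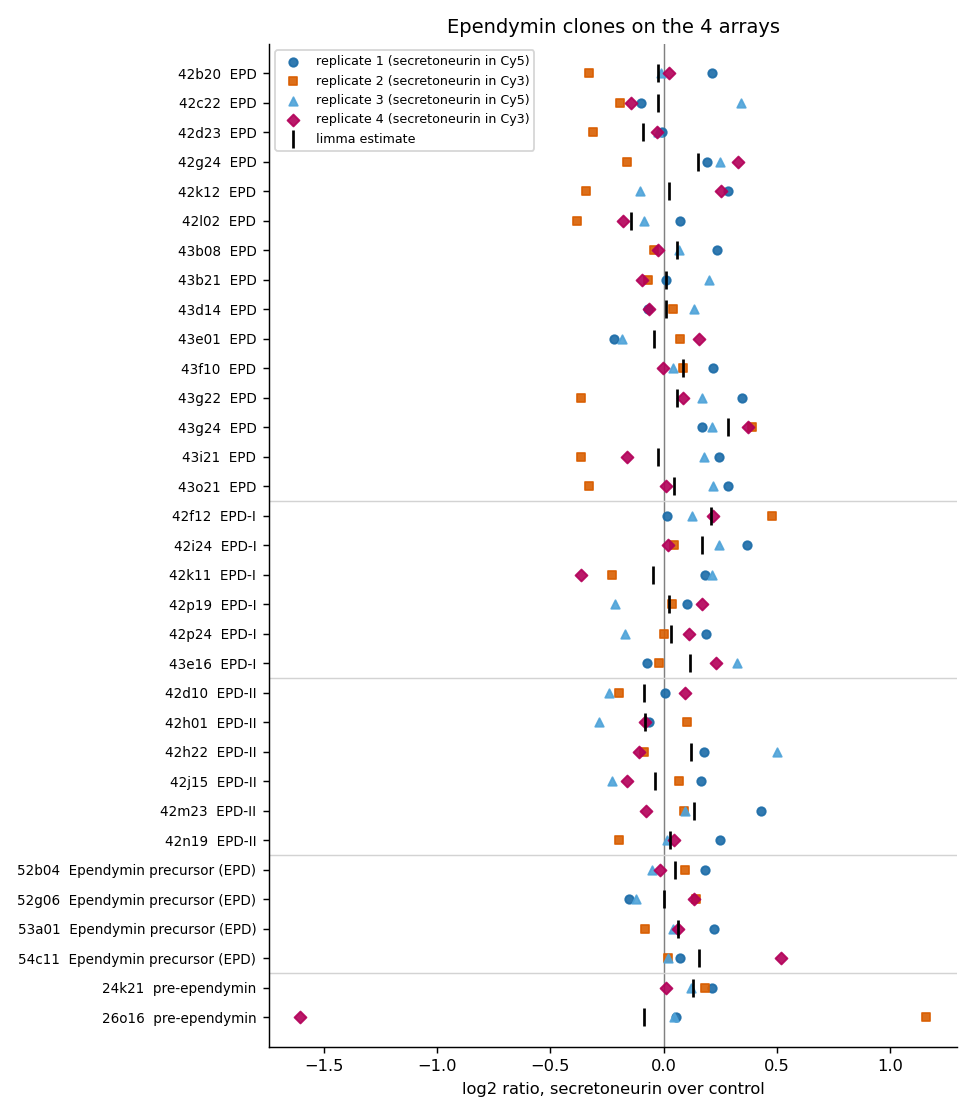
Log2 ratio of secretoneurin over control for each of the 33 ependymin clones (rows, grouped by name), with 1 symbol per array and a black bar for the limma estimate. The 32 clones other than 26o16 lie between -0.38 and 0.52 on every array, and 26o16 reaches 1.16 on replicate 2 and -1.60 on replicate 4.

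Without 26o16, the 32 clones held every ratio between -0.38 and 0.52. In limma 0 of the 33 clones were called at an adjusted p of 0.05 (0% of all clones were), and 3 had an unadjusted p under 0.05, all higher with secretoneurin. That is 9.09% of the ependymin clones, against 1.2% of all clones that were higher at this level. The 3 were 43g24 (EPD), 42f12 and 42i24 (both EPD-I). All 3 have their spots in the first row of print blocks on the slide. With loess within print blocks or with the authors' deposited ratios the count was 0 of 33. The fitted ratio was above 0 for 22 clones (66.7%) and below 0 for 11, and for all clones 50.6% were above 0. The median fitted log2 ratio was 0.027 over the ependymin clones and 0.0014 over all clones. The median 95% interval reached 0.20 to either side of a clone's estimate on the log2 scale, which is wider than the size of most of the estimates.

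The largest estimate among the EPD clones was that of 43g24. Its log2 ratios were 0.17, 0.39, 0.21 and 0.37 on replicates 1 to 4, above 0 on each. The estimate was 0.29 ± 0.052 (SE, n = 4 arrays; unadjusted p = 0.0048, adjusted p = 0.998, limma). It was above background in secretoneurin RNA on 1 array and in control RNA on none, so no fold is given. The estimate was 0.12 with loess within print blocks, 0.15 with marked spots kept and 0.19 in the authors' deposited table. Its spots were further apart than its arrays: on replicate 4 one spot gave 0.93 and the other -0.18, and on replicate 2 a single spot was kept.

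At the other end, 42l02 had 0.072, -0.38, -0.088 and -0.18, below 0 on 3 of 4 arrays, with an estimate of -0.14 ± 0.068 (adjusted p = 0.998, limma, n = 4), or -0.25 in the authors' deposited table and -0.30 with local background subtracted. It was above background in Cy5 on all 4 arrays and in Cy3 on none. Clone 42d23, whose insert the design doubts, was the 1 ependymin clone (3.03%) below 0 on all 4 arrays, against 5.55% of all clones. It had -0.0059, -0.31, -0.023 and -0.030, so that replicate 2 lay away from the other 3. Between these ends the 15 EPD clones had 9 estimates above 0 and 6 below. On replicate 2, 7 of the 15 were below -0.3, a limit that was not planned, and 0 were on any other array. Of the other clones of plates 42 and 43, 18.1% were below -0.3 on replicate 2 and 2.98% to 4.73% on the other arrays.

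Among the EPD-I clones, 42f12 and 42i24 were above 0 on all 4 arrays. The first had 0.015, 0.48, 0.12 and 0.22 and an estimate of 0.21 ± 0.071 (unadjusted p = 0.040, adjusted p = 0.998, limma, n = 4), or 0.074 with loess within print blocks and 0.12 in the authors' deposited table. It was above background in Cy5 on all 4 arrays but in Cy3 on only 1, so most of its ratios set a reading against the floor. Its spots read 0.19 and -0.16 on replicate 1, and 0.74 and 0.22 on replicate 2. The second had 0.37, 0.044, 0.24 and 0.018, with an estimate of 0.17 ± 0.056 (unadjusted p = 0.038, adjusted p = 0.998, limma), but was above background in neither group on any array, so these are ratios of 2 readings near the floor and no fold is given. Its estimate was 0.021 with loess within print blocks and 0.013 in the authors' deposited table. The lowest EPD-I clone, 42k11, was high where secretoneurin was in Cy5 (0.18 and 0.21 on replicates 1 and 3) and low where it was in Cy3 (-0.23 and -0.36 on replicates 2 and 4), so the loess-normalized ratio of Cy5 over Cy3 was above 0 on every array. The other 3 EPD-I clones had estimates from 0.022 to 0.11.

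Among the EPD-II clones no clone kept 1 direction on all 4 arrays. The highest, 42m23, had 0.43, 0.089, 0.092 and -0.080 and was above background in neither group. Its estimate of 0.13 was -0.015 with loess within print blocks and 0.97 with local background subtracted. The lowest, 42d10, had 0.0066, -0.20, -0.24 and 0.092, with an estimate of -0.085 ± 0.084 (adjusted p = 0.998, limma, n = 4), and was above background in control RNA on 3 arrays and in secretoneurin RNA on 2. Estimates were above 0 for 3 of the 6 clones and below 0 for 3.

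The 4 clones named Ependymin precursor (EPD) come from plates 52, 53 and 54. All 4 estimates were above 0, from 0.00038 for 52g06 to 0.16 for 54c11. Clone 52g06 read -0.16, 0.14, -0.12 and 0.13, above 0 where secretoneurin was in Cy3 and below 0 where it was in Cy5. This clone was above background in secretoneurin RNA on 1 array and in control RNA on none. Clone 54c11 was above 0 on all 4 arrays with 0.073, 0.020, 0.020 and 0.52, so its estimate of 0.16 ± 0.10 (adjusted p = 0.998, limma, n = 4) rests on replicate 4 (0.033 without it). Above background it was on only 1 array in each group, and in Cy3 on none, so these values too are readings near the floor. Its spots were at 0.56 and -0.53 on replicate 2, and their mean near 0 hides a gap of 1.09, the widest of any ependymin clone on that array.

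In all, 5 of 33 ependymin clones (15.2%) were above 0 on all 4 arrays, against 5.17% of all clones measured on 4 arrays. They were 43g24, 42f12, 42i24, 54c11 and 24k21. All but 54c11 have their spots in the first row of print blocks on the slide. So do 26o16, 42g24, 42k12 and 42p24, which were not above 0 on every array. With loess within print blocks the estimates were 0.12 (43g24), 0.074 (42f12), 0.021 (42i24), 0.098 (54c11) and 0.013 (24k21). The part of this position was not tested further. In the authors' deposited table none of the 5 stayed above 0 on every array. There 43g24 was below 0 on replicate 1 (-0.082) and 54c11 on replicate 3 (-0.12). On replicate 4, 42f12 (-0.18), 42i24 (-0.46) and 24k21 (-0.19) were below 0. The share of all clones above 0 on every array in that table is not given. Of the 5 clones above 0 on all 4 arrays, 24k21 was the one with every kept spot value above 0. The others had 6 of 7 (43g24), 7 of 8 (42f12), 6 of 8 (42i24) and 5 of 8 (54c11). Spots of the same ependymin clone differed in log2 ratio by a median of 0.17, 0.24, 0.20 and 0.20 on replicates 1 to 4, as large as the median reach of an estimate's 95% interval. For clones of other genes these medians were about the same, at 0.22, 0.20, 0.19 and 0.17. Across the ependymin clones other than 26o16 with both spots kept, the first and the second spot had correlations of 0.16 (n = 31), 0.12 (n = 30), 0.34 (n = 31) and 0.080 (n = 31). These are a description, since the spots share an array, where they lie in different print blocks.

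**Figure D4:**
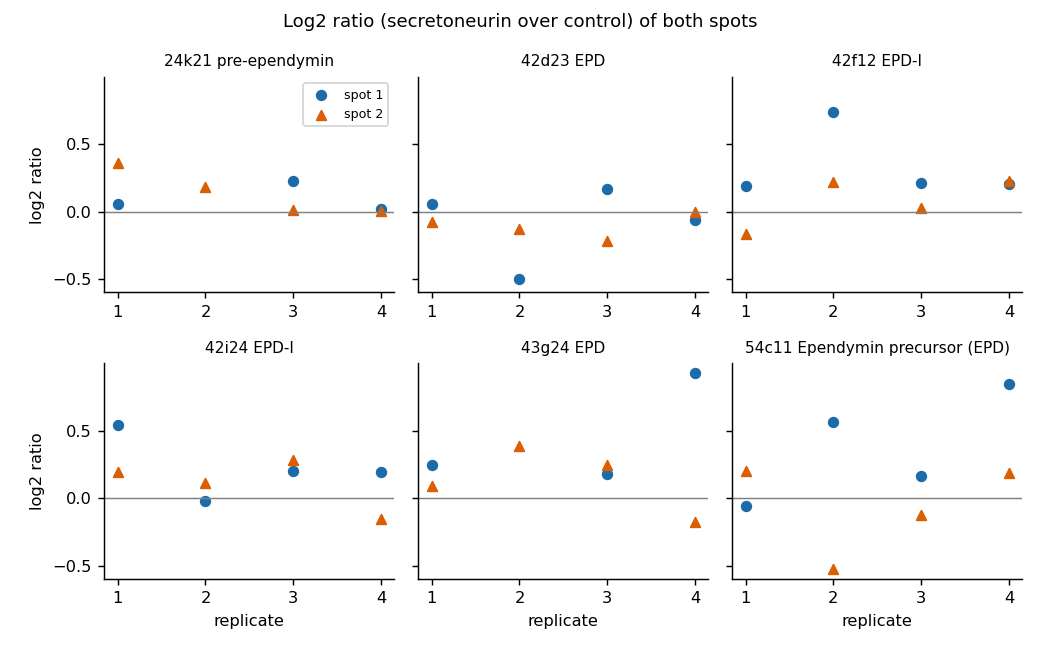
Log2 ratio of secretoneurin over control for each spot of the 6 ependymin clones whose spot mean had 1 direction on all 4 arrays, by replicate; a missing point is a spot marked to be ignored. Only in 24k21 do all kept spots lie on the same side of 0, and the spots of 43g24 and 54c11 are furthest apart.

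The names were then compared as groups, by the mean log2 ratio of their clones on each array. EPD had 0.13, -0.15, 0.093 and 0.035 on replicates 1 to 4, a mean of 0.025 ± 0.13 (SD, n = 4 arrays). EPD-I had 0.13, 0.051, 0.086 and 0.064, a mean of 0.083 ± 0.035, above 0 on all 4 arrays. On replicate 2 that sign rested on 42f12 (0.48), with the other EPD-I clones between -0.23 and 0.044. EPD-II had 0.16, -0.037, -0.026 and -0.049, a mean of 0.012 ± 0.099. The Ependymin precursor (EPD) clones had 0.081, 0.044, -0.028 and 0.18, a mean of 0.068 ± 0.085.

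EPD-I was the name with the least spread between arrays, and its mean was 0.011 with loess within print blocks and 0.036 in the authors' deposited table. EPD-I minus EPD-II was -0.029, 0.088, 0.11 and 0.11 on replicates 1 to 4, a mean difference of 0.071 ± 0.068 (SD, n = 4), above 0 on 3 of 4 arrays. EPD-I minus EPD was 0.0056, 0.21, -0.0074 and 0.029, a mean of 0.058 ± 0.099, and it rested on replicate 2. EPD-II minus EPD had a mean of -0.013 ± 0.11 and changed sign between arrays. No test of these differences was made, and each is about as large as its spread over the arrays or smaller. Leaving out the 4 clones with such a remark gave means of 0.038 ± 0.11 for 13 EPD clones, 0.076 ± 0.065 for 5 EPD-I clones and 0.031 ± 0.12 for 5 EPD-II clones.

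**Figure D5:**
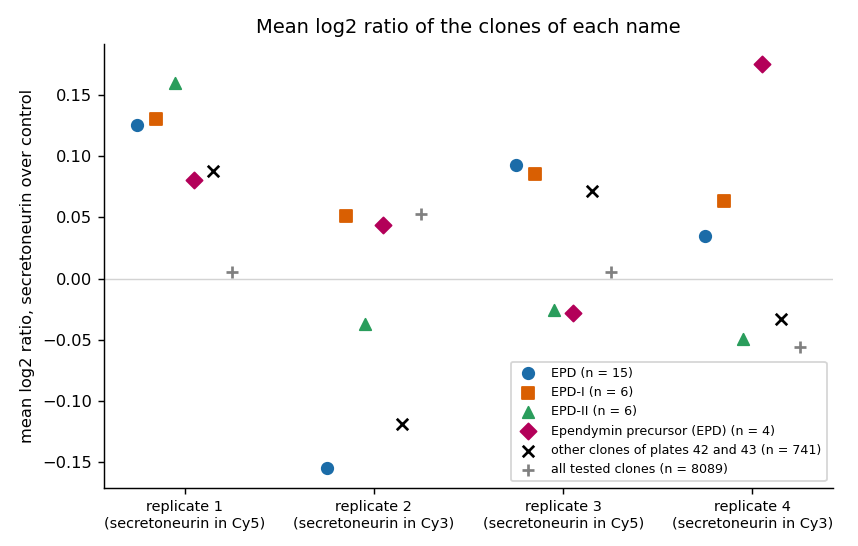
Mean log2 ratio of secretoneurin over control on each array for the clones of 4 ependymin names, the other clones of plates 42 and 43 (crosses) and all tested clones (plus signs); the 2 pre-ependymin clones are left out. On replicates 1, 2 and 3 the EPD mean lies on the same side of 0 as the mean of the 741 plate neighbours. The EPD-I mean lies above 0 on every array, on replicate 2 through clone 42f12.

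On replicates 1 to 3 clones of other genes from the same plates had means of the same sign as the EPD clones, and on replicate 4 they did not. The 741 other clones of plates 42 and 43 had means of 0.088, -0.12, 0.071 and -0.033 on replicates 1 to 4, beside 0.13, -0.083, 0.065 and 0.023 for the 27 ependymin clones of those plates. Over all clones the means were 0.0050, 0.053, 0.0053 and -0.056. The part of plate or position on the slide in the ependymin ratios was not tested further than by the loess within print blocks.

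The fitted log2 ratio of Cy5 over Cy3 was above 0 for 24 of 33 ependymin clones (72.7%) and for 538 of the 741 plate neighbours, and for 48.6% of all clones. No dye effect was called at an adjusted p of 0.05 in limma among the ependymin clones or among all clones (0%). In the same fit 4 of 33 ependymin clones and 538 of 8089 clones in all had an unadjusted p under 0.05 for the dye. The plate neighbours were not counted at this level. With 2 arrays in each orientation a constant dye difference cancels in the secretoneurin estimate.

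The ratio of Cy5 over Cy3 was averaged over all 33 ependymin clones, 26o16 included, to find clones of like pattern. Among 312 named clones above background with both dyes on all 4 arrays, the highest Pearson correlations over the 4 arrays were those of 60S acidic ribosomal protein P1 (0.99), parvalbumin B (0.99), 40S ribosomal protein S24 (0.99), 40S ribosomal protein S4 (0.99) and Ictacalcin (0.96), an S100-type calcium-binding protein. With 4 points, and the best of many candidates taken, these values are a description. A correlation also ignores the level and sign of the ratios. As secretoneurin over control, parvalbumin B read -0.21, 0.36, -0.31 and 0.36 on replicates 1 to 4. The ependymin mean was 0.13, -0.022, 0.055 and -0.0086, opposite in sign on every array. The 40S ribosomal protein S4 clone read 0.45, 0.076, 0.042 and 0.085, with the sign of that mean on replicates 1 and 3. The sign on replicate 4 rested on 26o16: without it the ependymin mean was 0.13, -0.058, 0.055 and 0.041. On replicate 4 that value has the sign of both the parvalbumin B and the 40S ribosomal protein S4 clone.

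Other genes of the tissues that make or meet ependymin were read from lists of clone names. Of 11 clones for meninges and connective tissue, where ependymin is made, 0 were called and 7 estimates were above 0 and 4 below, with a median log2 ratio of 0.031. None of the 11 was above background with both dyes on all 4 arrays. The clone for TIMP-3, which inhibits matrix metalloproteinases, read 0.42, 0.18, 0.23 and 0.25 with an estimate of 0.27 ± 0.062 (unadjusted p = 0.011, adjusted p = 0.998, limma, n = 4), above background in secretoneurin RNA on 2 arrays and in control RNA on none. A clone similar to procollagen-lysine 2-oxoglutarate dioxygenase, the enzyme that hydroxylates lysines of collagen, read 0.25, 0.047, 0.28 and 0.62. It was above background in secretoneurin RNA on 1 array and in control RNA on none. Clone 58d12, also named for such a dioxygenase, had an estimate of -0.092 and was above background in neither group. Estimates of the vimentin clones ran from -0.13 (24i24) to 0.11 (14j12). The part of these genes in the ependymin ratios was not tested.

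Of 20 clones for carrier proteins of cerebrospinal fluid and plasma, 0 were called, 7 were above 0 and 13 below, with a median of -0.016. Clones for apolipoprotein Eb, a lipid carrier, disagreed. Clone 59c02 read -0.37, -0.19, -0.47 and 0.095 (estimate -0.23), and 27i16, of the same name, read -0.61, 0.15, -0.39 and -0.028 (estimate -0.22). Clone 42f11, with the other spelling of the name, read 0.23, -0.055, 0.37 and 0.16 (estimate 0.17). Of 61 clones for neural and glial cells 0 were called, 28 were above 0 and 33 below, with a median of -0.010. Transgelin-3, a neuronal actin-associated protein, read -0.018, 0.23, 0.069 and 0.35 on clone 60h11 and -0.19, -0.0064, -0.16 and 0.41 on clone 14c24, and neuronal kinesin heavy chain read -0.50, -0.29 and -0.20 on the 3 arrays where it was kept. Of the 61, 2 were above 0.5 on replicate 2 and below -0.5 on replicate 4 as 26o16 was, where 5.41% of all clones were.

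Of 13 clones with globin in the name, read as marking red blood cells, 0 were called, with 9 estimates above 0 and 4 below and a median of 0.043. The lowest estimate, -0.11, was that of 42b05, which is named only for a globin protein domain and may not mark these cells. The clones of smallest unadjusted p were the alpha-globin clone 40f17, with 0.27, 0.067, 0.38 and -0.13, and the beta-globin clone 40a17, with 0.11, 0.014, 0.17 and 0.096. Also below 0 were the estimates of another alpha-globin clone, 39d06 (-0.027), and of the Hemoglobin beta chain clones 59g06 (-0.0996) and 52l08 (-0.038). Clone 61i09, of that same name, had an estimate of 0.092. Of 4 pituitary hormone clones 0 were called and all 4 estimates were below 0, with a median of -0.047. They ran from -0.062 ± 0.060 (growth hormone) to -0.0049 ± 0.052 (thyrotropin beta), the largest about the size of its SE. The somatotropin precursor clone, named for growth hormone as well, had -0.050 ± 0.10. Growth hormone, above background on 4 arrays in each group, read 0.33, -0.43, 0.43 and -0.58, positive where secretoneurin was in Cy5 and negative where it was in Cy3. The clone of the gonadotropin GTH-II read 0.013, -0.29, 0.28 and -0.18, with the same signs. It was above background in secretoneurin RNA on 2 arrays and in control RNA on 1.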

How the data were processed

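RNA of secretoneurin-treated and control pituitary cells was compared on 4 two-colour cDNA arrays. Per the file headers, the scanner files give a linear intensity per spot and dye with its local background, from which no background had been subtracted. The value table deposited by the authors was read as log2 ratios of Cy5 over Cy3 from its match to the scanner ratios (correlations of 0.86 to 0.92). Its array medians were 0.015, 0.044, 0.020 and -0.029, and how it was normalized is not given in the labels or headers, so it served as an alternative only.

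In limma 3.58.1 (R 4.3.3) intensities were background-corrected by normexp (offset 50), and log2 ratios were normalized by loess over each array (span 0.3, 4 iterations). Spots that the scanner software set aside (421, 720, 981 and 718 per array, and 5 of 264 ependymin spots) and 1128 control or empty spots carried no weight. Both spots of a clone were averaged, and 8089 of 8100 clones, those measured on 3 arrays or more, entered the two-sided test. The fit held a secretoneurin term (+1 or -1 by dye orientation) and a dye term, which left 2 residual degrees of freedom. SEs, intervals and p-values are moderated: limma draws each clone's variance toward that of all clones and adds degrees of freedom for it. They therefore do not rest on a clone's own values alone. Adjusted p-values are Benjamini-Hochberg values over all clones, with a threshold of 0.05. The fit was tested on simulated ratios with known changes. Their noise was independent between arrays, so the simulation did not cover the opposition of replicates 2 and 4. Every array carries both groups, so the pairing is within the array.

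For a clone dim in 1 group on every array no fold is given, since most of these clones were over the floor on 1 array only. The number of arrays limits the precision.

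Ependymin clones were found by name. Values on each array are given for clones with 1 direction on all 4 arrays, for the highest and the lowest estimate within each name, and for the 2 different names of smallest unadjusted p in each tissue list. Names are those of the array design. The members and lists were chosen with earlier results of these data known, and wrong name matches in the lists, such as myoglobin among globins, were removed by name after the values had been computed. Alternatives covered background correction, normalization, marked spots, a filter on dim clones, the dye term, the ordinary t statistic, the authors' table and leaving out each array.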

Additional observations from a re-analysis of the deposited data

Results flagged for a closer look

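A single array stood apart from the other 3 by Dixon's criterion in 3 of the 39 sets of 4 values examined (33 clones, the means of the 5 names and the mean of all ependymin clones), and chance alone gives about 1 in 20. Clone 42d23 (EPD, with a doubtful insert in the design) had a log2 ratio of -0.31 on replicate 2, while its other 3 values lay between -0.030 and -0.0059. Clone 54c11, named Ependymin precursor (EPD), had 0.52 on replicate 4 against 0.020 to 0.073 on the others, and its spots on that array read 0.84 and 0.19. The EPD-II mean was 0.16 on replicate 1 and between -0.049 and -0.026 on replicates 2 to 4.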

How the results depend on the processing

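Clone 26o16 gave 0.0023 in the authors' deposited table and -0.78 to 0.60 when 1 array was left out. It gave 0.86 with the sign of replicate 4 turned and -0.98 with that of replicate 2 turned, in opposite directions. Leaving out 1 array gave 0 to 437 clones called for secretoneurin and 0 to 434 for the dye over all clones, and 0 to 1 among the ependymin clones for each. The clone was 26o16 for secretoneurin, and these counts rose without replicate 2 or replicate 4, the opposed arrays. With the sign of replicate 4 turned, 1 clone was called for secretoneurin and 1 for the dye, neither an ependymin clone. The EPD-I mean was 0.13 with local background subtracted, 0.036 in the authors' deposited table and 0.011 with loess within print blocks, and the Ependymin precursor (EPD) mean was -0.020 with the sign of replicate 4 turned. Single clones crossed 0 in these settings: with the sign of replicate 2 turned, 42d10 (0.039), 42d23 (0.032) and 52g06 (-0.0029); with that of replicate 4 turned, 42k11 (0.012) and 54c11 (-0.061); with loess within print blocks, 42m23 (-0.015); and without background correction, 52g06 (-0.037), which ran from -0.0083 to 0.0090 with 1 array left out. The turned signs were added after the opposition of replicates 2 and 4 was seen. The cause of these shifts was not tested. Of the alternative values, 269 kept their direction and side of the threshold or stayed within the spread over arrays. Of the rest, 12 crossed 0, 11 rose in count or passed the threshold, and 4 means moved beyond that spread. Counts that stayed at 0, and means that crossed 0 within a wide spread, are among the 269. Among clones above background with both dyes on all 4 arrays no ependymin clone remained, so that filter gave no value for them. Signal near background limits the ependymin clones, 26o16 in secretoneurin RNA on replicate 4 included.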
